A study of Mus musculus with 4 samples.

Results

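Cycling malignant cells of a mouse sarcoma were defined as the cells of the deposited malignant table in which transcripts of both Mki67 and Top2a were detected. The rule was met by 7272 of the 18963 malignant cells, in a series of 31611 cells, with 1950 and 1931 cells in the vehicle mice 1 and 2 and 1601 and 1790 cells in the digoxin mice 1 and 2. Mki67 encodes a protein that coats chromosomes in mitosis and is made outside of quiescence, and Top2a encodes the topoisomerase that untangles replicated DNA. The members were thus chosen by the measured UMIs of these 2 genes, and their levels and the differences in level between these cells and the remaining malignant cells are given as descriptions, with no test. Tests over the mice were made only of digoxin against vehicle. They covered shares of cells, also set against those in macrophages, and gene levels within the cycling cells. The difference of the digoxin effect on gene levels from the one in the remaining malignant cells was tested as well.

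The tumors were allografts of a sarcoma with the Trp53flox/flox genotype and a further engineered allele on the 129/SvJae strain, taken from the hind limb, and all 4 samples carry the same genotype label. The labels do not say which Cre or cell type recombined the alleles, nor whether the tumors came from 1 line. The host mice received intraperitoneal injections every 24 h of either the vehicle, named as PBS, or 2 mg/kg digoxin from a stock in DMSO diluted in PBS, and tumors were taken after the fourth dose. Each group held 2 mice, the mouse was the replicate, and values for the 4 mice are given below in the order vehicle 1, vehicle 2, digoxin 1 and digoxin 2. RNA was counted as unique molecular identifiers (UMIs), tags that mark single RNA molecules at their 3′ ends, and a gene's level in a mouse is its UMIs scaled to 1000000 in each cell and then averaged over cells (CPM, counts per 1000000).

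A dividing cell copies its DNA in S phase and separates the copies in mitosis, after a gap called G2. Cyclins switch on cyclin-dependent kinases (CDKs) in sequence, cyclins D and E at the entry to S phase and cyclins A and B up to mitosis, and CDK inhibitors hold the kinases back. E2F factors raise the replication genes at the entry to S phase, and the DREAM complex, Mybl2 and Foxm1 control the mitotic genes later. In tumors that have lost p53, the arrest that p53 imposes through Cdkn1a is known to be weakened. Digoxin is a cardiac glycoside that blocks the sodium pump.

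The cells were rich in the 2 further markers of dividing cells that the rule did not use. Cdk1, the mitotic kinase, was detected in 93.6%, 90.8%, 91.9% and 91.8% of the cycling cells, and Ccnb1, the cyclin B1 that activates it, in 77.0%, 74.4%, 74.4% and 77.3%. In the remaining malignant cells Cdk1 was detected in 59.7%, 53%, 55.4% and 56.0%, and Ccnb1 in 13.9%, 11.3%, 12.7% and 16.6%. With cells thinned at random to 20000 UMIs, the shares were 75.1% to 81.3% against 33.7% to 36.9% for Cdk1 and 50.8% to 56.5% against 5.72% to 7.65% for Ccnb1. As a mesenchymal marker, the collagen gene Col1a2 was detected in 99.8% to 100% of the cycling cells of each mouse, at 1057, 935, 883 and 837 CPM, and at 35.4 to 60.7 CPM in cells deposited as macrophages. Trp53 stood at 9.81, 9.33, 8.10 and 7.88 CPM in the cycling cells and at 59.4 to 68.7 CPM in macrophages, and as the labels do not give the deleted part, a 3′ tag need not lie within it and does not check the deletion.

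Depth and other cells need naming before the shares. Cycling cells had a median of 92060, 83427, 94501 and 86588 UMIs, which was 2.17, 2.23, 2.25 and 2.21 times that of the other malignant cells. Vehicle 2 stood apart from the other mice in Xist, the RNA that coats the inactive X chromosome. Xist was at 21.3, 0.947, 20.7 and 19.3 CPM in the cycling cells and at 635, 0.161, 752 and 753 CPM in macrophages. Without the cells marked as doublets below, it was at 6.68, 1.06, 6.93 and 5.86 CPM in the cycling cells. The Y-linked Ddx3y was at 34.4, 34.6, 32.3 and 31.0 CPM in the cycling cells of all 4 mice and at 1.86, 87.7, 1.74 and 2.28 CPM in macrophages. By these genes the macrophages of vehicle 2 differed in sex from those of the other 3 mice. Host sex is not in the labels used here, and its part in any mean of the vehicle mice cannot be told apart from that of vehicle 2 itself. Scrublet, a doublet caller, marked 13.4%, 11.9%, 7.62% and 8.04% of the cycling cells and 4.77%, 5.35%, 4.18% and 3.52% of the others. Both digoxin mice had the lower share of marked cycling cells, with an exact permutation p of 0.333, the smallest that 2 mice against 2 allow. Between libraries, 113 of 31498 distinct cell barcodes occurred in at least 2, and 0 cell names occurred in both the malignant and the non-malignant table. Some of the results are also given without marked cells and without single mice.

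Between 30.8% and 45.0% of the malignant cells were cycling, and the digoxin mice did not stand apart from the vehicle mice. The share was 43.3% (1950 of 4507 cells, exact binomial 95% interval 41.8 to 44.7), 30.8% (1931 of 6269, 29.7 to 32.0), 38.0% (1601 of 4211, 36.6 to 39.5) and 45.0% (1790 of 3976, 43.5 to 46.6). The intervals cover counting error only. Vehicle 2 was lowest, digoxin 2 was highest and vehicle 1 lay between the digoxin mice, so the groups overlapped. The mean was 4.49 percentage points higher with digoxin (41.5% ± 4.95 against 37.0% ± 8.81, SD, n = 2 each), with a two-sided exact permutation p of 0.667. The difference was smaller than the spread between the vehicle mice, and it was -1.75 points without vehicle 2 and 10.7 points without vehicle 1.

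The order of the mice was the same with the depth of the cells held fixed and with another pair of genes. In cells thinned to 20000 UMIs, which left out 171, 458, 262 and 319 shallower malignant cells, the share was 31.2%, 21.1%, 26.2% and 32.8%. In cells thinned to 10000 UMIs it was 21.8%, 14.1%, 18.6% and 23.8%. When Cdk1 and Ccnb1 were asked for in place of the rule's genes, it was 38.2%, 27.7%, 33.0% and 40.0%. Vehicle 2 was lowest and digoxin 2 highest under each of these 3 settings, and the exact permutation p was 0.667 each time.

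**Figure D1:**
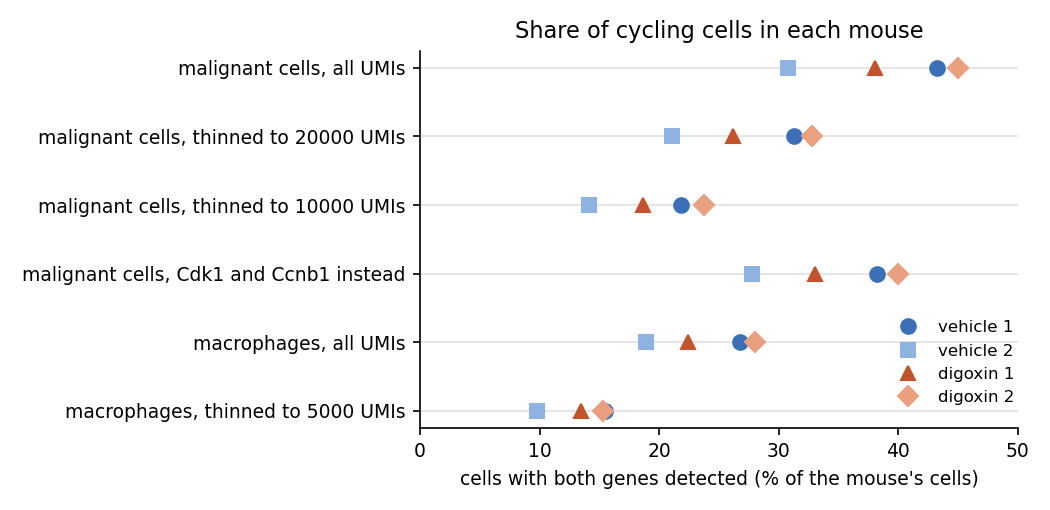
Percent of cells in which both genes were detected, with 1 symbol per mouse and 1 line per population and setting (Mki67 and Top2a except on the line for Cdk1 and Ccnb1). On every line vehicle 2 is lowest, digoxin 1 is next, and vehicle 1 lies above digoxin 1, so the groups overlap, with values from 30.8% to 45.0% in malignant cells with all UMIs.

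The cut of the rule falls on cells with few transcripts of either gene. Of the cycling cells, 6%, 6.47%, 6.81% and 5.64% held exactly 1 UMI of each gene, and these had median depths of 46383 to 51150 UMIs. Just outside, 32.3%, 35.3%, 34.0% and 30.8% of the malignant cells had Top2a without Mki67, at median depths of 44163 to 48893 UMIs, and 3.59% to 4.83% had Mki67 without Top2a. Neither gene was detected in 20.8%, 29.1%, 24.2% and 20.3%. Both edges of the rule thus lay at similar depths, well below the median of the cycling cells. At the upper end, 41.9%, 35.4%, 41.5% and 41.8% of the cycling cells held 10 or more UMIs of each gene.

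The share was higher in deeper cells in every mouse. Malignant cells were divided by depth into 5 classes of equal size. In the shallowest class, from 3776 to 30851 UMIs, 8.98%, 4.198%, 6.55% and 12.4% were cycling, and in the deepest class, from 92123 to 362803 UMIs, 90.8%, 85.7%, 88.9% and 91.2% were. Cycling cells held 61.2%, 48.1%, 57.1% and 63.2% of all malignant UMIs, more than their share of cells in each mouse. The part of depth in this was not tested, as the thinned shares were not divided by the depth of the cells.

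**Figure D2:**
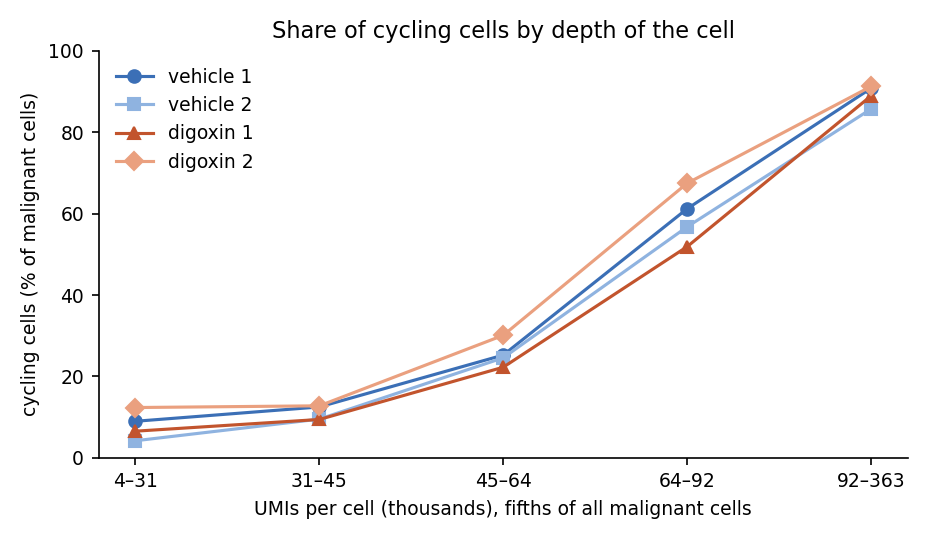
Percent of malignant cells that were cycling (vertical axis, 0 to 100%) in 5 depth classes of equal size, from the fewest UMIs per cell on the left to the most on the right, with 1 line per mouse. All 4 lines climb from 4.198% to 12.4% in the shallowest class to 85.7% to 91.2% in the deepest.

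Macrophages, host cells that share the tumor, had the same order of mice. By the same rule 26.8%, 18.9%, 22.4% and 28.0% of the cells deposited as macrophages had both genes, at median depths of 16070 to 17049 UMIs. The share in malignant cells minus that in macrophages was 2.13 points higher in the digoxin mice (exact permutation p 0.667). With both kinds of cells thinned to 5000 UMIs, malignant cells stood at 13.9%, 8.46%, 12.3% and 15% and macrophages at 15.5%, 9.74%, 13.4% and 15.3%. Vehicle 1 was then the highest for macrophages. Malignant minus macrophage shares were 0.711 points higher in the digoxin mice at this depth (exact permutation p 0.333, the smallest possible). At full depth that difference was -0.188 points without vehicle 2. For comparison, cells deposited as osteoclasts, which are known to be non-dividing, had both genes in 7.60% at a median of 24868 UMIs and in 1.14% after thinning to 5000 UMIs, and those deposited as M1 macrophages in 6.59% and 1.37%. At the same thinned depth the malignant share was above both in every mouse. Other deposited types were at or above the malignant 12.0% over all mice at this depth, among them NK cells at 22.3%, T cells at 19.4% and highly proliferative M2 macrophages at 80.9%.

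By list medians the mitotic lists lay furthest above the non-cycling cells, with a median log2 difference of 3.13 for the G2 and mitosis list and of 1.58 for the S phase list. Of the 15872 genes compared, 1589 (10%) were at least 1.5-fold higher in the cycling cells of every mouse and 1332 (8.39%) at least 1.5-fold lower. Since the rule used this contrast, these counts describe the cells and carry no test. Among the cycling cells Mki67 was 2.35-fold and Top2a 1.63-fold higher in those called G2/M below than in those called S. The rule thus bears on the order of the lists as well, which is likewise a description. Of the 100 genes of at least 20 CPM with the largest differences, 75 belonged to the cell cycle lists used here and 59 to the lists of S phase or of G2 and mitosis. In cells thinned to 20000 UMIs, with the rule applied anew, 1262 genes were higher and 1131 lower.

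The contrast in the rule's own genes was fixed by the rule, and their levels are given as a description. Mki67 stood at 145, 131, 141 and 143 CPM in the cycling cells and at 3.61, 3.41, 3.16 and 3.73 CPM in the others. Top2a stood at 410, 358, 392 and 417 CPM against 29.2, 27.0, 29.7 and 36.4 CPM. Cdk1 was at 222, 192, 199 and 215 CPM against 26.2, 23.5, 25.3 and 32.0 CPM, a median fold of 7.74, and Ccnb1 at 78.7, 77.1, 73.7 and 84.0 CPM against 5.79, 3.85, 6.84 and 9.32 CPM, a median fold of 10.6. For Cdk1 and Ccnb1, which the rule did not use, no level of a cycling population overlapped with one of a non-cycling population.

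Among genes of at least 20 CPM outside the rule, the largest difference was that of Hist1h1b, which encodes a linker histone, at 163, 163, 175 and 187 CPM in the cycling cells and 3.75, 4.37, 5.25 and 8.39 CPM in the others. It was followed by Hmmr, which encodes a spindle protein, at 114, 93.7, 99.6 and 111 CPM against 4.94, 3.13, 3.54 and 6.66 CPM. Hist1h2ap, a core histone gene with near-identical copies whose reads the counting could split, was at 52.98, 42.6, 57.7 and 58.8 CPM against 1.43 to 2.96 CPM. Most of the remaining leaders act in mitosis. The kinetochore genes Cenpf, Cenpe and Knl1 had median folds on the log2 scale of 4.13, 3.85 and 3.92, the cyclin gene Ccna2 of 3.89, Birc5 of the chromosomal passenger complex of 3.86, the motor gene Kif11 of 3.85 and Nusap1, whose protein bundles microtubules, of 3.84.

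The S phase list was less far apart than the mitotic list. All 66 genes of the G2 and mitosis list were at least 1.5-fold higher in every mouse, with a median log2 difference of 3.13, and 63 of 66 of the S phase list were, with a median of 1.58. Mcm5, a subunit of the replicative helicase, was at 89.0, 83.8, 90.2 and 99.0 CPM against 17.1, 14.1, 16.6 and 21.9 CPM. Rrm2, which makes deoxynucleotides, was at 77.7, 67.3, 74.8 and 84.3 CPM against 6.02, 5.03, 6.43 and 9.12 CPM. Plk1, the polo-like mitotic kinase, was at 36.9, 31.8, 32.3 and 35.0 CPM against 1.65, 0.908, 1.86 and 2.14 CPM. Relative to the cycling cells, the non-cycling cells of each mouse thus had a larger part of the level of Mcm5 than of Plk1. As the rule bears on this order, it is a description only. Origin licensing, fork, nucleotide supply and chromatin assembly genes had medians of 1.33, 1.43, 1.69 and 1.68, and kinetochore and kinesin genes of 3.13 and 3.42, while the median of all genes was -0.02.

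**Figure D3:**
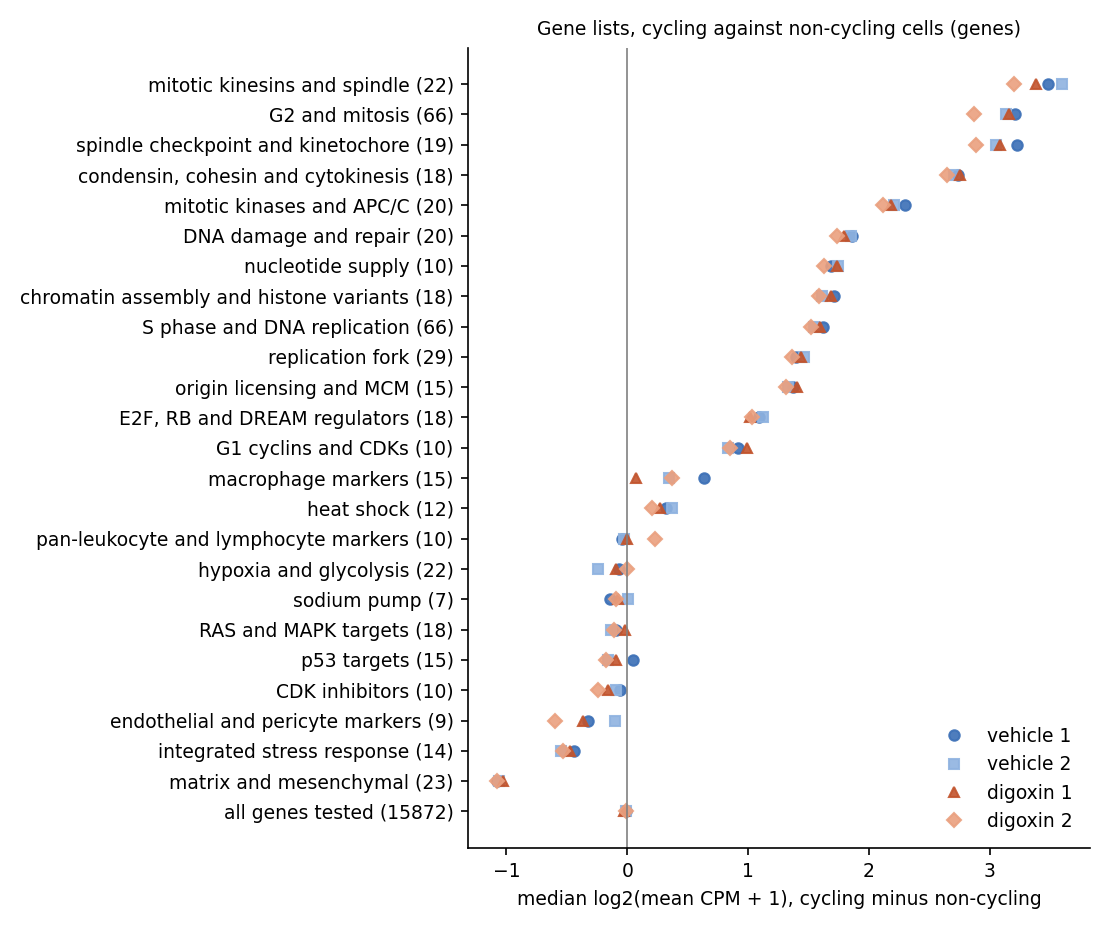
Median over the genes of each list of the log2 difference in mean CPM between cycling and non-cycling malignant cells, with 1 symbol per mouse, lists ordered by that difference, all genes last, and the number of genes in brackets (Mki67 and Top2a left out). The kinesin and spindle list lies between 3.20 and 3.59, the kinase and APC/C list between 2.12 and 2.30, the S phase list between 1.52 and 1.62, and the matrix list near -1 in every mouse.

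Regulators of the cycle differed less evenly than the machinery. Ccnd1, the cyclin D1 gene, was at 310, 332, 308 and 324 CPM in the cycling cells and 83.0, 81.4, 83.6 and 101 CPM in the others, a median fold of 3.67. Its kinase partners Cdk4 and Cdk6 had median log2 differences of 0.69 and 0.55, and Cdk2 of 0.47. Ccne1 and Ccne2, the E cyclins, differed by 1.85 and 2.03. Among the transcription factors E2f8 was at 9.32 to 9.86 CPM against 0.794 to 1.18 CPM, Mybl2 at 14.9 to 19.9 CPM against 1.049 to 1.64 CPM and Foxm1 at 19.99 to 22.5 CPM against 3.13 to 3.82 CPM. E2f1, which opens the S phase program, was at 33.2, 28.4, 32.6 and 34.4 CPM against 21.5, 17.9, 21.6 and 22.8 CPM, a median log2 difference of 0.59.

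CDK inhibitors and p53 targets are few, and their counts stand beside 10% of all genes higher and 8.39% lower in every mouse. Of the 10 genes of the CDK inhibitor list, 3 were higher in every mouse (Cdkn3, Cdkn2d and Pkmyt1) and 1 was lower (Cdkn1b, which encodes p27). Cdkn1b was at 38.1, 47.9, 39.5 and 36.6 CPM in the cycling cells and 60.5, 77.0, 70.2 and 59.8 CPM in the others. Cdkn1a, the p21 gene that p53 is known to induce, was at 32.4, 31.5, 34.6 and 37.3 CPM against 31.8, 43.3, 50.4 and 47.2 CPM. Cdkn2a, whose products p16 and p19ARF restrain CDK4 and protect p53, was at 913, 1109, 983 and 920 CPM against 1140, 1209, 1135 and 1093 CPM, so cycling cells carried it at nearly the level of the others. Of 15 p53 target genes, 1 (Aen) was higher and 3 (Btg2, Trp53inp1 and Fas) were lower in the cycling cells of every mouse.

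Most genes of the matrix list lay lower in the cycling cells. Of 23 matrix and mesenchymal genes, 15 were at least 1.5-fold lower in every mouse and 1, S100a4, was higher, with a median log2 difference of -1.08. Postn, which encodes a matrix protein of remodelling tissue, was at 532, 312, 273 and 222 CPM in the cycling cells and 1903, 1318, 1231 and 1050 CPM in the others. Col3a1, a fibrillar collagen gene, was at 895, 720, 666 and 654 CPM against 3054, 2795, 2374 and 2346 CPM. Of all genes of at least 20 CPM, those furthest down were Eln, the elastin gene, at 8.98, 9.17, 6.50 and 5.96 CPM against 60.1, 74.1, 63.2 and 61.4 CPM, and then Clec3b, Abi3bp, Apod and Lcn2, at median log2 differences of -2.95, -2.85, -2.77 and -2.65. Vim, the vimentin gene that marks mesenchymal cells, was not among the lower genes, at 6334 to 6735 CPM against 5830 to 6043 CPM.

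Genes of other programs lay on both sides, again beside 10% of all genes higher and 8.39% lower. Among 18 RAS and MAPK targets, Epha2, Ccnd1, Etv4 and Fosl1 were higher and Spry1, Spry2, Spry4 and Egr1 lower. Fosl1, an AP-1 factor gene, was at 124 to 144 CPM against 49.3 to 60.05 CPM, and Spry1, a feedback inhibitor of the pathway, at 18.1 to 29.3 CPM against 76.5 to 117 CPM. Of 14 genes of the integrated stress response the serine synthesis genes Phgdh and Psat1 were higher and Trib3, Slc7a11, Ddit3 and Vldlr lower. Of 12 heat shock genes Hspd1, Hspe1, Hsph1 and Hsp90aa1 were higher and Dnajb1 was lower, the latter a share like that of all genes.

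Promoters are shown for genes of both phases because E2F sites are known from replication genes, and the CHR element, which the DREAM complex binds, and CCAAT boxes from mitotic genes. The 250 bases before the gene start were read from the RefSeq promoter table of build GRCm38.p6, which corresponds to mm10, and searched on both strands for 3 kinds of word. The CHR word was TTTGAA, and the CCAAT box was searched as CCAAT. An E2F word was either TTCCCGC or a variant of it, which was TTGGCGC in one form and TTCGCGC in the other, and these can overlap each other. Capitals mark the matches and all other bases are in lower case, written 5′ to 3′ on the strand of the gene. Shown for the mitotic side are Cdk1 (chr10:69352913-69353162, minus strand), Ccnb2 (chr9:70421555-70421804, minus strand) and Cdc20 (chr4:118437344-118437593, minus strand), and for the replication side Mcm5 (chr8:75109259-75109508, plus strand) and Mcm6 (chr1:128359706-128359955, minus strand).
Cdk1: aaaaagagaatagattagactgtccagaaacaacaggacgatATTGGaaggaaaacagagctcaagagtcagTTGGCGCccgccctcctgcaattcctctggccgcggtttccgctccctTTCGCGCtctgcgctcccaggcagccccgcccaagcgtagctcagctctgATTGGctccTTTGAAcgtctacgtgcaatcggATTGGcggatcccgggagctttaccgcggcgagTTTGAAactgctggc
Ccnb2: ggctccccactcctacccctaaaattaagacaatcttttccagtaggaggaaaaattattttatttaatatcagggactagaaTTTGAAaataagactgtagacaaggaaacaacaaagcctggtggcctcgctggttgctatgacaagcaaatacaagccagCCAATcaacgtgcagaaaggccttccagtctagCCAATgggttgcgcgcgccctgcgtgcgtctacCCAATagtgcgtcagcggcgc
Cdc20: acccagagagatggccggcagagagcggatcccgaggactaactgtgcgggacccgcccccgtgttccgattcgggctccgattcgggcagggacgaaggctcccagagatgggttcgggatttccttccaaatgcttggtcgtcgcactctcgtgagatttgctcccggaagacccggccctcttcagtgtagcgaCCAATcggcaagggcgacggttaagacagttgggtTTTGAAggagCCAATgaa
Mcm5: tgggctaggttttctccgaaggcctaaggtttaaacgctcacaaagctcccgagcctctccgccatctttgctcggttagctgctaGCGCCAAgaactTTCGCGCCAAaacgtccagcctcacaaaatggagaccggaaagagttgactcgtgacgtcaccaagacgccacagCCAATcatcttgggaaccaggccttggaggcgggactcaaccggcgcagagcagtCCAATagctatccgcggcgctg
Mcm6: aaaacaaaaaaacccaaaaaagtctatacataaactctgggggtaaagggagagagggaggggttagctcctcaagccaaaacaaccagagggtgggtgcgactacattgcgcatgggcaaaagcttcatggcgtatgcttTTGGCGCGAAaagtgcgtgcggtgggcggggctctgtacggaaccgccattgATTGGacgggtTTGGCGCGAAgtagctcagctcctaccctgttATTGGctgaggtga

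Cdk1 held CHR words beginning 71 and 15 bases before the start, beside 3 CCAAT words and 2 E2F words. Cdc20, whose product activates the anaphase-promoting complex, held a CHR word 18 bases and CCAAT words 53 and 8 bases before the start, and Ccnb2, the cyclin B2 gene, held a CHR word at 167 bases and 3 CCAAT words at 87, 54 and 21 bases. Mcm5 and Mcm6, both subunits of the replicative helicase, held no CHR word in this window and 2 CCAAT words each. They had 3 and 4 matches of the E2F words, some of which overlap. Plk1, Pcna and Rrm2, also looked at, held 1 CCAAT word each and no other match. Over all windows of the G2 and mitosis list (62 windows of 56 of its 66 genes), 33.9% held a CHR word, 75.8% a CCAAT word and 12.9% an E2F word. Over those of the S phase list (57 windows of 49 of 66 genes), the shares were 14.0%, 61.4% and 38.6%. Of the 14837 windows of genes tested 11.2%, 34.9% and 10.8% held them, so that the E2F share of the mitotic list lay near this background and the CHR share of the S phase list a little above it. The CCAAT share lay above this background in both lists, so this word did not set the mitotic list apart. Of all 32851 windows held by RefSeq the shares were 16.0%, 33.8% and 6.69%, and of the 1373 windows of the other genes at least 1.5-fold higher in cycling cells 13.2%, 40.0% and 18.5%. These are matches of letters, not sites of a bound factor.

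Cycling cells fell into different phases. Phase was called from scores over the S phase and the G2 and mitosis lists, without Mki67 and Top2a, in cells thinned to 20000 UMIs. Of the cycling cells 50.3%, 45.8%, 45.2% and 48.2% were called G2/M, 26.8%, 24.6%, 28.0% and 30.8% S, and 22.8%, 29.6%, 26.7% and 21.0% G1, the call for cells low in both scores. Of the other malignant cells 94.6% to 96.8% were called G1. In 18.4% to 21.6% of the cycling cells the S and G2/M scores lay within 0.05 of each other, so many calls are close. Conversely 95.3% to 97.7% of all malignant cells called G2/M met the rule, 85.1% to 89.7% of those called S and 13.0% to 16.7% of those called G1.

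Cycling cells called G1 had low levels of the scored genes, which the call itself fixes. Their Mki67, which the scores leave out, was at 33.9, 34.5, 32.0 and 34.5 CPM, against 97.2, 84.2, 93.9 and 96.5 CPM in those called S and 217, 218, 235 and 214 CPM in those called G2/M, and 3.16 to 3.73 CPM in the non-cycling cells. The rule asks for Mki67, so the gap to the non-cycling cells was fixed by it. In the cycling cells called G1, Cdk1 was at 31.8, 31.6, 28.2 and 30.9 CPM and Rrm2 at 6.46, 6.83, 6.09 and 8.04 CPM, both genes of the scoring lists. Non-cycling cells had Cdk1 at 26.2, 23.5, 25.3 and 32.0 CPM and Rrm2 at 6.02, 5.03, 6.43 and 9.12 CPM, close to these levels. Mcm5 was at 25.4 to 30.0 CPM in the cycling cells called G1 and at 14.1 to 21.9 CPM in the non-cycling cells. Ccnd1 was at 164 to 198 CPM in the cycling cells called G1, at 294 to 348 CPM in S and at 380 to 411 CPM in G2/M, and at 81.4 to 101 CPM in the non-cycling cells. The median depth of the cycling cells called G1 was 61578 to 66935 UMIs, against 91490 to 102599 UMIs in S and 92472 to 110472 UMIs in G2/M.

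S and G2/M cells split as the scores would have it, since most of the genes named here are in the scoring lists. Ccne2 was at 18.9, 18.8, 19.8 and 18.4 CPM in S and 4.92, 4.75, 4.68 and 5.61 CPM in G2/M. Plk1 was at 10.9, 9.47, 9.04 and 9.78 CPM in S and 67.2, 63.1, 64.9 and 65.8 CPM in G2/M, a median fold of 6.16. Mki67, left out of the scores, was 2.35-fold higher in G2/M than in S by the median over mice, and Top2a 1.63-fold. Cdkn1a lay lower in G2/M, at 25.8, 30.4, 30.3 and 29.3 CPM, than in S, at 31.0, 32.6, 34.2 and 38.5 CPM.

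Phase shares were compared between the groups over the mice. The G2/M share was 46.7% ± 2.13 with digoxin and 48.0% ± 3.24 with vehicle (SD, n = 2 each), a difference of -1.31 points with an exact permutation p of 0.667, and the groups overlapped. Its sign changed without vehicle 1 (0.977 points) and without digoxin 1 (0.193 points). The S share was 29.4% ± 1.93 with digoxin and 25.7% ± 1.58 with vehicle, and both digoxin mice lay above both vehicle mice (exact permutation p 0.333, the smallest possible). Without thinning the S shares were 26.6%, 25.3%, 27.6% and 29.7%, in the same order. The gap between the digoxin 1 and vehicle 1 mice was about 1 point, and the part of free RNA in the calls was not tested.

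No gene passed the test for digoxin in the cycling cells. At a Benjamini-Hochberg adjusted p of 0.05 limma found 0 of 15874 genes (0%), and before adjustment 635 genes had a p under 0.05. EdgeR, run on summed UMIs, likewise found 0 (599 before adjustment), as did limma-voom. DESeq2 found 50, with 16 on the digoxin side and 34 on the vehicle side. Limma called 182 genes without vehicle 1 and 299 without vehicle 2, and 0 without either digoxin mouse. Each of these fits has 1 mouse in a group, which is assumed to vary like the 2 of the other group, so the calls without a vehicle mouse take their spread from the digoxin mice alone. In 1813 genes (11.4%) both digoxin mice lay above both vehicle mice, and in 3219 (20.3%) below. The genes named below are therefore given by their values, and each has a limma adjusted p of 0.999.

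The 5 genes named for the smallest p on the upper side were Brd1, Purb, Cryab, Ctdspl and Cul3. Brd1, a chromatin reader of histone acetyltransferase complexes, was at 35.2, 41.6, 62.3 and 69.9 CPM in the cycling cells, a log2 difference of 0.77 (SE 0.0998). Purb, which encodes a single-stranded DNA and RNA binding protein, was at 99.0, 112, 150 and 171 CPM (log2 0.60, SE 0.0910). Cul3, the scaffold of a ubiquitin ligase family, was at 41.6, 44.2, 57.7 and 66.2 CPM (log2 0.52, SE 0.0820). Both digoxin mice lay above both vehicle mice in each of these genes, which was a condition for naming them. Ctdspl, a phosphatase gene, was at 22.8, 23.8, 31.1 and 31.0 CPM, and Cryab, a small heat shock protein gene, at 73.6, 68.2, 91.1 and 94.6 CPM.

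Brd1, Purb and Cul3 had the same pattern outside of the cycling cells. In the non-cycling malignant cells Brd1 was at 39.5, 52.3, 71.6 and 74.98 CPM, Purb at 73.0, 94.6, 116 and 125 CPM and Cul3 at 34.8, 39.3, 51.4 and 57.4 CPM. The difference in the digoxin effect between cycling and non-cycling cells was 0.10 for Brd1, 0.07 for Purb and -0.02 for Cul3 on the log2 scale (limma adjusted p 1.00 each). In macrophages Brd1 was at 37.7, 41.0, 54.4 and 57.6 CPM, Purb at 116, 108, 150 and 144 CPM and Cul3 at 74.0, 59.5, 90.0 and 90.6 CPM, again with both digoxin mice above both vehicle mice. Cryab and Ctdspl were higher in both digoxin mice in the non-cycling malignant cells. In macrophages Cryab was at 14.2, 9.57, 8.78 and 12.1 CPM, with overlapping groups, and Ctdspl was not examined there. Without marked doublets the cycling cells had Brd1 at 34.6, 40.9, 62.3 and 70.2 CPM. DESeq2 called Brd1 at an adjusted p of 1.39e-08, and limma called it without vehicle 1 (adjusted p 0.00359) and without vehicle 2 (0.000268), where the digoxin mice alone gave the spread. It was not called by edgeR (adjusted p 0.967) or limma-voom (0.998), nor by limma with a replicate block (0.276), without digoxin 1 (0.892) or without digoxin 2 (1.00), while its log2 difference stayed between 0.65 and 0.89 in every setting run.

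The genes with the smallest p on the lower side are known to be expressed by macrophages. Of these, Selenop, Fcgrt and Lyz2 were also detected in most non-cycling malignant cells. Selenop, the selenium transport protein gene, was at 93.8, 87.7, 66.0 and 63.5 CPM in the cycling cells (log2 -0.48, SE 0.0590), and Lyz2, the lysozyme gene, at 325, 343, 206 and 235 CPM (log2 -0.60, SE 0.0756). Rgs10, a regulator of G protein signalling, was at 22.9, 24.3, 17.0 and 15.8 CPM, Fcgrt, the neonatal Fc receptor gene, at 44.8, 42.6, 32.8 and 29.4 CPM, and Tyrobp, a myeloid signalling adaptor gene, at 47.0, 46.6, 37.4 and 37.5 CPM. Each lay lower in both digoxin mice, which was a condition for naming them. In macrophages Lyz2 was at 10679, 16171, 10868 and 13057 CPM and Selenop at 1103, 1474, 1235 and 1019 CPM. In the non-cycling malignant cells Selenop was at 182, 208, 172 and 142 CPM and Fcgrt at 89.8, 94.8, 87.2 and 73.7 CPM, above their levels in the cycling cells of every mouse.

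The macrophage marker list lay lower as a whole. Of its 15 genes, 13 were below in both digoxin mice, beside 20.3% of all genes, and 0 were above. An unadjusted p under 0.05 was found for 11 of them, beside 635 of all 15874 genes, with a median log2 difference of -0.51 beside -0.02 over all genes. The summed level of the list in the cycling cells was 1165, 1092, 772 and 829 CPM, and in macrophages it was 35211, 51211, 37514 and 39113 CPM. Without marked doublets the sum in the cycling cells was 391, 219, 218 and 217 CPM, and 6 of 15 genes were below in both digoxin mice, where 17.7% of all genes were. The median log2 difference of the list was then -0.45, beside -0.51 with all cells. In the sums vehicle 1 alone then stood apart, and vehicle 2 lay near both digoxin mice. Lyz2 was then at 108, 57.8, 59.1 and 67.9 CPM and Tyrobp at 14.2, 10.1, 10.4 and 11.4 CPM, both with overlapping groups. Selenop was then at 62.5, 51.0, 43.3 and 34.9 CPM, still below in both digoxin mice, as were Fcgrt and Rgs10. Of the defining markers none was at 0, and the lowest were Vsig4 at 1.497, 0.811, 0.299 and 0.104 CPM and Cd163 at 2.95, 1.33, 0.642 and 0.431 CPM. The share of marked doublets among the cycling cells was 12.6% ± 1.04 with vehicle and 7.83% ± 0.3001 with digoxin (SD, n = 2 each). In the non-cycling cells the summed level of the list was 764, 877, 769 and 622 CPM, with overlapping groups. There 4.77%, 5.35%, 4.18% and 3.52% of the cells were marked, again fewer in both digoxin mice. The part of doublets in the levels of this list was not tested.

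**Figure D4:**
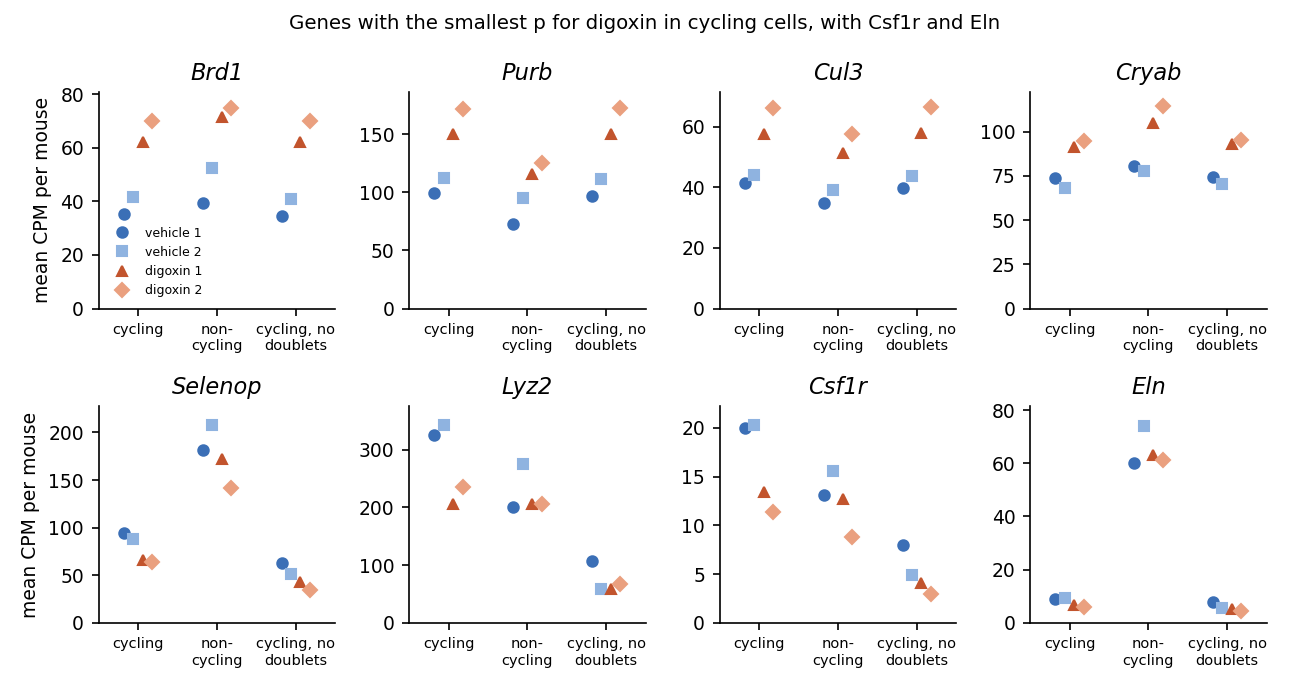
Mean CPM per mouse (vertical axes from 0, 1 scale per gene) in cycling cells, non-cycling malignant cells and cycling cells without marked doublets, with 1 symbol per mouse. Brd1, Purb, Cul3 and Cryab are higher in both digoxin mice in all 3 columns, while Lyz2 and Csf1r lose most of their level when marked doublets are left out.

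Among the cycle genes the differences were small and 0 passed the test. Of the 66 S phase genes 15 lay above in both digoxin mice and 1, Rpa3, below, a share of 22.7% above beside 11.4% of all genes, with a median log2 difference of 0.05 and a range of -0.14 to 0.17. Without vehicle 2 the share above was 28.8%, beside 28.5% of all genes, and without vehicle 1 it was 83.3%, beside 33.0%. Hells, a chromatin remodeller of replicating DNA, had the largest value, at 133, 116, 134 and 147 CPM. Mcm5 was at 89.0, 83.8, 90.2 and 99.0 CPM and Mcm6 at 55.9, 58.2, 58.9 and 60.8 CPM, where the lowest digoxin and the highest vehicle mouse were about 1 CPM apart. The S phase list also entered the S calls of the same cells, so these are not separate results.

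The mitotic list did not lean with digoxin. Of 66 genes 2 (Anln and Rangap1) lay above and 6 below in both digoxin mice, 3.03% and 9.09% beside 11.4% and 20.3% of all genes, and the median log2 difference was 0.01. In cells thinned to 20000 UMIs the balance turned, with 14 genes (21.2%) above and 8 (12.1%) below beside 14.1% and 20.2% of all genes, and a median of 0.02. Cdk1 was at 222, 192, 199 and 215 CPM (log2 -0.000984, SE 0.0836) and Ccnb1 at 78.7, 77.1, 73.7 and 84.0 CPM (log2 0.01, SE 0.0742). The 6 below were Psrc1, Cdca3, Gas2l3, Ckap2, Ccnb2 and Pttg1, with Ccnb2 at 82.5, 83.4, 77.7 and 74.4 CPM (log2 -0.12, SE 0.0522). Without vehicle 2, 46 of the 66 genes (69.7%) lay below vehicle 1, where 41.3% of all genes did, and without vehicle 1, 45 (68.2%) lay above vehicle 2, where 33.0% of all genes did. Without digoxin 1, 19 lay above and 9 below, and without digoxin 2, 2 above and 16 below, so the direction depended on which mice were kept.

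Limma called no regulator either. Cdkn1a had both digoxin mice above both vehicle mice, at 32.4, 31.5, 34.6 and 37.3 CPM (log2 0.17, SE 0.0659). Ccnd1 was at 310, 332, 308 and 324 CPM and Cdk4 at 362, 350, 349 and 348 CPM. Of the 7 genes of the sodium pump list Fxyd5, a small regulatory subunit, was the 1 whose groups did not overlap, at 90.2, 91.8, 83.0 and 83.1 CPM, while 20.3% of all genes lay below in both digoxin mice. In the hypoxia and glycolysis list Egln1, an oxygen-sensing hydroxylase gene, had the largest difference, at 18.5, 19.9, 30.0 and 45.4 CPM (log2 0.91, SE 0.187). Egln1 was likewise at 16.3, 23.3, 27.3 and 38.1 CPM in the non-cycling cells, and it was among the 50 genes that DESeq2 called for digoxin in cycling cells.

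Heat shock genes lay on both sides, and more matrix genes lay below than above. Of 12 heat shock genes 4 lay above in both digoxin mice (Hsph1, Hspa8, Hspa1b and Hsp90ab1) and 2 below (Dnajb1 and Hspa1a). Among all genes 11.4% lay above and 20.3% below. Hspa1b was at 15.7, 20.2, 25.1 and 28.6 CPM and its near-identical copy Hspa1a at 4.44, 7.43, 3.52 and 4.14 CPM, so the counting could have split reads between them. Of 23 matrix genes 8 (34.8%) lay below, 1, Vim, lay above and 14 overlapped, beside 20.3% below and 11.4% above among all genes. Postn was at 532, 312, 273 and 222 CPM and Fn1, the fibronectin gene, at 485, 499, 411 and 351 CPM. Without vehicle 1 the matrix list had 9 genes (39.1%) below and 10 (43.5%) above, beside 42.9% and 33.0% of all genes, and without vehicle 2 it had 20 (87.0%) below and 2 (8.70%) above, beside 41.3% and 28.5%.

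**Figure D5:**
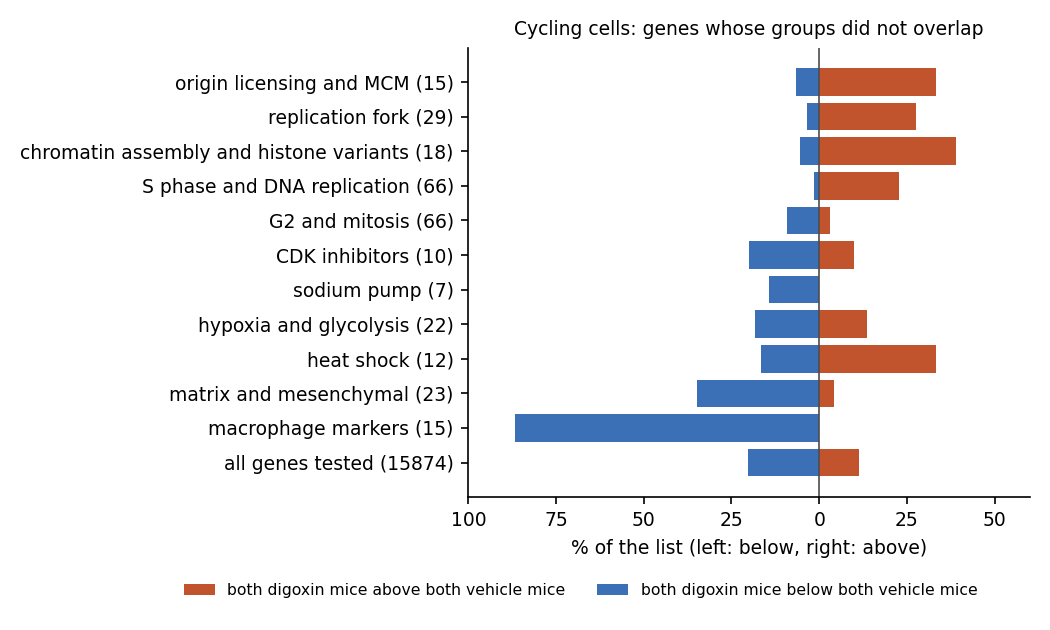
Percent of the genes of each list (number tested in brackets) for which both digoxin mice lay above (right) or below (left) both vehicle mice in cycling cells, with all genes tested as the last bar (11.4% above, 20.3% below). The macrophage list extends to 13 of 15 genes on the left, and the S phase list to 15 of 66 on the right.

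The digoxin effect in cycling cells was then set against that in the other malignant cells of the same mice. Limma on the within-mouse difference called 1 of 15874 genes (0.0063%), and 795 had a p under 0.05 before adjustment. EdgeR with an interaction term found 0, and 575 before adjustment. The called gene was S100a9, a calprotectin subunit made by neutrophils, which lay outside the rule for named genes because of its low level. It was at 3.35, 1.67, 4.53 and 2.72 CPM in the cycling cells and at 4.70, 2.52, 19.2 and 11.8 CPM in the others, a difference in log2 effect of -1.43 (SE 0.0932, limma adjusted p 0.0184). In level, both digoxin mice were higher in the non-cycling cells, while the groups overlapped in the cycling cells. The share of cells with an S100a9 UMI was higher in both digoxin mice in either population, at 2.39%, 1.80%, 14.0% and 8.05% of the non-cycling cells and 5.59%, 3.06%, 23.2% and 9.11% of the cycling cells. In the non-cycling cells 10 cells per mouse held 66.4% to 87.2% of its UMIs. Cells deposited as neutrophils numbered 11, 5, 34 and 23, also more in both digoxin mice, and their part in these values was not tested. The call for S100a9 was lost with a smaller difference in cells thinned to 20000 UMIs (log2 -0.43, limma adjusted p 1.00), with a pseudocount of 10 (log2 -0.77, adjusted p 0.453) and by edgeR (log2 -0.64, adjusted p 1.00). It was lost with about the same difference when low genes were not filtered (log2 -1.43, limma adjusted p 0.113), without digoxin 1 (log2 -1.39, adjusted p 0.0661) and without digoxin 2 (log2 -1.47, adjusted p 0.0738).

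Of the genes of at least 20 CPM named for this comparison, Aqp1, Ttll5, AI413582, Igsf3 and Lgals3 had the smallest p with a higher effect in the cycling cells, and Igsf10, Cd14, Il1b, Isg15 and Islr with a lower effect. Limma adjusted p was 0.374 to 0.701 for these 10. Aqp1, a water channel gene, was at 49.1, 40.6, 49.9 and 50.8 CPM in the cycling cells and at 62.8, 66.0, 53.5 and 55.0 CPM in the others. Il1b, an inflammatory cytokine gene, was at 27.0, 16.6, 24.2 and 18.3 CPM in the cycling cells and at 19.9, 17.2, 38.1 and 36.8 CPM in the others. Islr, an immunoglobulin-like matrix gene, was at 28.6, 22.8, 22.5 and 21.0 CPM against 126, 111, 136 and 123 CPM. For the cycle lists the median difference in effect was -0.04 (S phase) and -0.20 (G2 and mitosis), beside -0.01 over all genes, and 0 of their genes passed. Within the cycling cells the median log2 effect of digoxin on these lists was 0.05 and 0.01. The negative differences are thus not a lower level of these lists with digoxin in the cycling cells.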

How the data were processed

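Single-cell RNA was sequenced from the tumors of 4 mice, 2 per group. Reads were aligned and UMIs counted with Cell Ranger 3.0.2 on mm10 and analysed with Seurat 3.0.2, per the submitters' processing notes. The deposited tables of malignant and non-malignant cells hold the natural log of 1 plus UMIs per 10000 UMIs of the cell, and cell types and UMI counts per cell come from the deposited cell tables. How cells were filtered and called malignant is not given in the sources used here, and every deposited malignant cell had at least 1801 genes. Whole UMI counts were recovered from the deposited values and the deposited counts per cell, with 100% of values whole within 0.01. One vehicle library carries another number in its cell names and was assigned to vehicle 2 through the deposited cell table.

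Genes kept by edgeR's count filter on summed UMIs (15874) were tested with limma 3.58.1 (empirical Bayes with a trend) on log2(mean CPM + 1) per mouse, with Benjamini-Hochberg adjustment over all of them and a threshold of 0.05. The digoxin effect in cycling cells was set against that in non-cycling cells by limma on the within-mouse difference. A log2 difference on this scale understates the change of low genes. Alternatives were a pseudocount of 10, no filter, thinned cells, edgeR 4.0.16, limma-voom and DESeq2 1.42.0 on UMIs, a replicate block, and leaving out each mouse. Shares were compared by two-sided exact permutation tests over mice. Phases were scored with scanpy 1.11.5. Doublets were marked by Scrublet per mouse (1381 of 31611 cells) and kept unless stated. Scripts were tested on simulated counts, with a spread between mice that was set and not estimated from these data. There limma recovered 32% of 50 genes changed 1.5-fold and 100% of those changed 2-fold or 4-fold, with 16 false calls. Changes of 1.5-fold could thus be missed.

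Genes named were the rule's markers, the 10 highest and 5 lowest program genes of at least 20 CPM, the cycle regulators, and the 5 smallest p in each direction of each digoxin test among genes of at least 20 CPM whose groups did not overlap; genes named from lists beyond these were chosen after their values were seen. The members and the gene lists were chosen with earlier results of these data known. Same-numbered mice of the groups are not paired by the labels. One allele of the tumors and one named gene are not reported here.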

Additional observations from a re-analysis of the deposited data

Results flagged for a closer look

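S100a9 differed between cycling and non-cycling malignant cells in its digoxin effect, by a test of that difference itself. The log2 effect in cycling minus that in non-cycling cells was -1.43 (SE 0.0932, limma adjusted p 0.0184), the only call among 15874 genes. The call did not hold in 6 other settings: the difference was -0.43 in cells thinned to 20000 UMIs, -0.64 by edgeR and -0.77 with a pseudocount of 10, and stayed between -1.39 and -1.47 with no filter on low genes and without either digoxin mouse. Its UMIs lay in few cells: 59 to 371 cells per mouse in the cycling population and 61 to 365 in the other held any, with 34.9% to 87.2% of its UMIs in the 10 highest cells. In cells deposited as macrophages S100a9 was at 3.46, 1.62, 15 and 9.25 CPM in vehicle 1, vehicle 2, digoxin 1 and digoxin 2, where both digoxin mice were again higher. The part of other cells' RNA in this difference was not tested.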

How the results depend on the processing

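With 2 mice per group the results depended most on single mice, and the cause was not tested. Leaving out each mouse, the difference in the share of cycling cells ranged from -1.75 points (without vehicle 2) to 10.7 points (without vehicle 1), that in the G2/M share from -3.60 to 0.977 points (0.193 without digoxin 1) and that against macrophages from -0.188 to 4.45 points. The count of genes called for digoxin in cycling cells ranged from 0 to 299 (182 without vehicle 1), and that for the difference from non-cycling cells from 0 to 30 (12 without vehicle 1 and 4 without digoxin 2). DESeq2 called 50 genes for digoxin. For the difference, 4 genes were called without marked doublets, and 0 with a pseudocount of 10, without the filter, in thinned cells and by edgeR. With a replicate block limma called 0 genes for digoxin and 10 for the difference, and the share difference was 4.49 points. The deviations of vehicle 1 and digoxin 1 correlated at -0.161 across genes, and a crossed block, chosen after seeing the data, called 0 and 1 genes. Of 58 genes named for digoxin, 36 changed sign when a mouse was left out, and 12 were called under some setting.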

Other observations

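Several class I presentation genes, chosen after their values were seen, separated the vehicle mice within the cycling cells. H2-K1, a class I heavy chain gene, was at 365, 89.8, 202 and 204 CPM in vehicle 1, vehicle 2, digoxin 1 and digoxin 2. H2-D1 was at 361, 126, 224 and 229 CPM and B2m, the class I light chain gene, at 597, 309, 434 and 409 CPM. Psmb8, an immunoproteasome subunit gene, was at 141, 24.1, 80.1 and 82.8 CPM, and Tap1, a peptide transporter gene, at 18.8, 4.37, 11.2 and 12.0 CPM. For each of these 5 genes the digoxin mice lay close together between a high vehicle 1 and a low vehicle 2. In the non-cycling malignant cells both digoxin mice also lay between the vehicle mice for each of them. There H2-K1, for example, was at 414, 101, 255 and 269 CPM, so this order was not particular to the cycling cells. Class II genes had another order, with Cd74 at 202, 126, 147 and 96.3 CPM and H2-Ab1 at 62.0, 42.1, 50.04 and 31.5 CPM, lowest in digoxin 2. Without marked doublets Cd74 was at 43.8, 26.7, 38.8 and 25.7 CPM in the cycling cells, and in macrophages it was at 6265 to 8473 CPM. The part of other cells' RNA in the class II levels was not tested. Lox, which encodes a collagen cross-linking enzyme, was at 141, 55.4, 73.1 and 70.7 CPM in the cycling cells and at 326, 174, 202 and 194 CPM in the non-cycling cells. In both populations the digoxin mice lay between the vehicle mice. The class II genes and Lox were likewise chosen after their values were seen.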
